A study of Homo sapiens with 6 samples.

Results

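MHC class II molecules carry peptides from the endosome to the cell surface, where CD4+ T cells read them. HLA-DR, HLA-DP and HLA-DQ are pairs of an alpha and a beta chain, CD74 (the invariant chain) fills their groove until they reach the endosome, and HLA-DM, itself a pair of HLA-DMA and HLA-DMB, exchanges the remnant of CD74 for a peptide. Professional antigen presenting cells transcribe these genes constitutively, and many other cells do so after interferon gamma, in both cases through CIITA, a coactivator that does not bind DNA itself but is recruited by the RFX, CREB and NF-Y proteins on the X and Y boxes of class II promoters. The genes followed here were HLA-DRA, HLA-DRB1, HLA-DPA1, HLA-DPB1, HLA-DQA1, HLA-DQB1, HLA-DMA, HLA-DMB, CD74 and CIITA. They are 10 of the 19775 genes that the array reads with a probe set of 1 gene symbol. All 32 probe sets whose annotation names 1 of these genes were taken, without regard to their values.

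The cells were NCI-H226, an established human mesothelioma line. In 1 group they grew attached as monolayers and in the other as spheroids, with 10000 cells per well spun together in a plate coated with poly-HEMA, which keeps cells from attaching, and kept there for 24 hours. Neither group received a cytokine or drug according to the labels, and the treatment text of the monolayers repeats the spheroid protocol. RNA of 3 biological replicates per group was read on 1 Affymetrix Human Genome U133 Plus 2.0 array each, so that 6 arrays of 1 cell line are compared. A spheroid is an aggregate of these cells alone, without stroma or immune cells, at 1 time point.

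A probe set is a group of short probes summarised into 1 signal, here a linear MAS5 intensity. Signals of different probe sets are not on a common scale of RNA amount and are not ranked against each other. Signals were taken to log2 and centred on the array median, and changes are given as spheroids minus monolayers on this scale with the limma standard error (SE). A probe set was called when its Benjamini-Hochberg adjusted p over all 54613 tested probe sets was under 0.05. Detection calls were not used here, and a signal under 3.11, the 20th percentile of all signals, is taken as the bottom of the scale. The median signal of an array ran from 14.6 to 14.7 in monolayers and from 15.2 to 18.0 in spheroids. ACTB, a control of RNA integrity, had a 3' to 5' ratio of 1.09 ± 0.0123 for monolayers against 1.17 ± 0.0603 for spheroids (SD, n = 3; p = 0.1 by an exact permutation test, two-sided, which cannot go lower with 3 arrays on each side, and 0.2 after Benjamini-Hochberg over 2 controls). The ratio of GAPDH was 0.894 ± 0.0174 and 0.901 ± 0.0121 (SD, n = 3; p = 0.6 by the same exact test). Of 8 mesothelioma markers measured, 1 (PDPN) was higher in spheroids and 0 were lower, beside 3.88% higher and 9.22% lower over all genes, and PDPN did not pass in 5 of the 6 fits that left out 1 array. THBD had all spheroids below all monolayers without passing (log2 fold change -1.24, adjusted p = 0.109 by limma). KRT19 and WT1 read at least 4534 and 1347 on all 6 arrays. The arrays of replicate 1 stood apart at some markers. At CALB2, monolayer 1 read 1582 against 163 and 83.6 in the other monolayers, while the spheroids read 2238, 1317 and 1765. At KRT5 replicate 1 stood apart in both groups, with monolayers at 1845, 130 and 79.3 and spheroids at 910.5, 267 and 290.4. Where a member's call changes without these arrays, both values are given.

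The X and Y boxes that recruit CIITA could be looked for in RefSeq promoters (GRCh38.p14), each 250 bases before to 50 after a transcription start. Searched on both strands were ATTGG, the core of the Y box, and AGNNACNG, a core of the X box. Of 35116 promoters, 34.6% hold the first, 48.4% the second, and 0.809% hold the X core 10 to 40 bases upstream of the Y core, both on the strand of the gene. The table holds a promoter for 8 of the 10 genes, and 4 of these have the pair on the gene's strand, namely HLA-DRB1, HLA-DQA1, HLA-DQB1 and HLA-DMA. HLA-DRA and CIITA are not in it. The stretches that hold the pair are shown because their letters match the cores of the boxes at which CIITA is recruited. Recruitment to these stretches was not measured here. Each is written 5′ to 3′ on the strand of its gene, with the X core and then the Y core in capitals. HLA-DRB5, a neighbour of HLA-DRB1 that several of the probe sets also name, is shown for comparison.
HLA-DRB1: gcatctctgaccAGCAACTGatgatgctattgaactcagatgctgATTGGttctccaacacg
HLA-DRB5: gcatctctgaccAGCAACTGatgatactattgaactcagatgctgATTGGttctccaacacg
HLA-DQA1: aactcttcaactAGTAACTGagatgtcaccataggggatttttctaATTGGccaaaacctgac
HLA-DQB1: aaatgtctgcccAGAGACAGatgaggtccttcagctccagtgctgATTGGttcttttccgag
HLA-DMA: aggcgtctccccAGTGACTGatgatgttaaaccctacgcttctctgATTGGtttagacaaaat

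These stretches lie at chr6:32589878-32589939 on the minus strand (HLA-DRB1), chr6:32530361-32530422 on the minus strand (HLA-DRB5), chr6:32637292-32637354 on the plus strand (HLA-DQA1), chr6:32666729-32666790 on the minus strand (HLA-DQB1) and chr6:32953160-32953222 on the minus strand (HLA-DMA). The first base of the X core lies at -79 from the start in HLA-DRB1, -102 in HLA-DQA1, -121 in HLA-DQB1 and -113 in HLA-DMA, and the cores are 25 or 26 bases apart in all of them. HLA-DRB1 and HLA-DRB5 share 61 of 62 bases, with the difference G26A, counted from 1 at the 5′ end of the stretch and with the HLA-DRB1 base first. In HLA-DMA a second match of the X core, on the other strand, overlaps the one shown. The remaining 4 promoters, of HLA-DPA1, HLA-DPB1, HLA-DMB and CD74, do not hold the pair in these letters on the gene's strand. A match is a description of the sequence and not a site of binding.

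**Figure D1:**
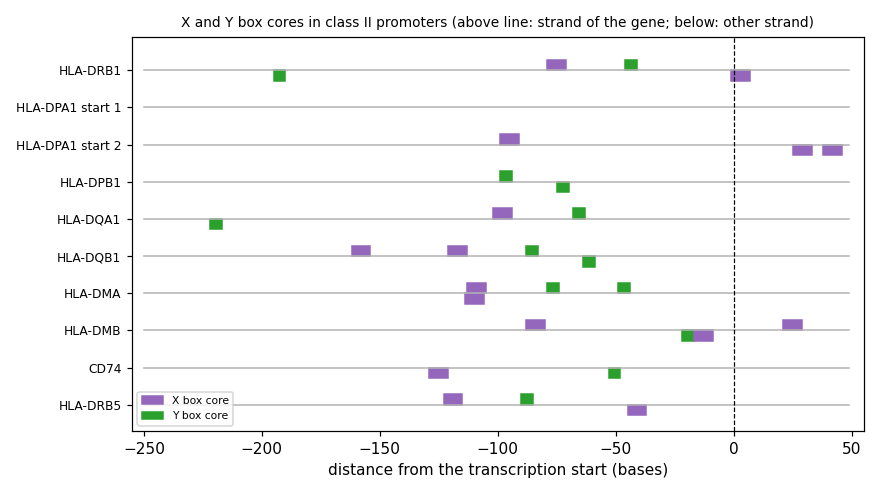
Matches of the X box core (purple) and the Y box core (green) in the promoters of 8 of the genes and of HLA-DRB5, against the distance in bases from the transcription start (dashed line), with matches on the strand of the gene drawn above each line and those on the other strand below. HLA-DPA1 has 2 starts in the table. In HLA-DRB1, HLA-DQA1, HLA-DQB1, HLA-DMA and HLA-DRB5 a purple box lies 25 or 26 bases upstream of a green one on the strand of the gene.

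Among the 10 genes, the probe sets that rose past the test were those of HLA-DR beta chains. Of the 32 probe sets, 4 were upregulated in spheroids, 0 were downregulated and 28 did not pass limma, beside 2.78% upregulated and 6.65% downregulated over all 54613 probe sets. All 4 name HLA-DRB1, which has 6 probe sets, and 209312_x_at and 215193_x_at among them also name HLA-DQB1. Apart from these shared probe sets, the other 9 genes had no probe set that passed. With both arrays of replicate 1 left out, 7 were upregulated, the 4 and 1 probe set each that names HLA-DRB1, HLA-DQA1 and CD74. At an unadjusted p under 0.05 by limma, 9 of the 32 were higher and 1 was lower, beside 4305 higher and 7987 lower of all 54613. Of the 9, 5 name HLA-DRB1. The spheroids lay all above the monolayers at 9 of 32, where 10.2% of all probe sets did so, and all below at 1, where 17.6% of all did. The median log2 fold change was 2.79 over the 6 probe sets that name HLA-DRB1 and 0.19 over the 26 that do not, beside -0.08 over all probe sets. In RNA from whole cultures, more expressing cells and more RNA per cell cannot be told apart.

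HLA-DRB1 encodes the polymorphic beta chain of HLA-DR. On the monolayer arrays its probe set 208306_x_at, the 1 that carries this symbol alone, read 13.0, 23.7 and 21.6, and on the spheroid arrays 250.2, 305 and 367. Every spheroid was over 10 times the highest monolayer. The means were 19.4 ± 5.65 (SD, n = 3) and 307 ± 58.2 (SD, n = 3), a log2 fold change of 3.87 (SE 0.27, adjusted p = 3.19e-04 by limma), or 14.6-fold.

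Probe set 215193_x_at, which names HLA-DRB4, HLA-DRB3, HLA-DRB1 and HLA-DQB1, read 9.81, 20.4 and 11.8 in monolayers and 142.8, 143.0 and 203 in spheroids (log2 fold change 3.45, SE 0.32, adjusted p = 7.62e-04 by limma). Probe set 209312_x_at, with HLA-DRB5, HLA-DRB4, HLA-DRB1 and HLA-DQB1 in its annotation, read 13.6, 30.4 and 26.8 in monolayers and 146.9, 181.5 and 288 in spheroids (log2 fold change 3.00, SE 0.36, adjusted p = 0.00172 by limma). For 204670_x_at, assigned to HLA-DRB4 and HLA-DRB1, the monolayers read 24.5, 20.5 and 24.2 and the spheroids 128.1, 148.4 and 183 (log2 fold change 2.57, SE 0.22, adjusted p = 6.12e-04 by limma). In all of these the lowest spheroid was above the highest monolayer, and spheroid replicate 3 was the highest array. The call of 209312_x_at was lost without the mean-variance trend (adjusted p = 0.0526) and in the unmoderated test per probe set that the methods name (adjusted p = 0.0749), while the other 3 passed under each of the 14 alternatives with an adjusted p.

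The remaining probe sets that name HLA-DRB1 did not pass. Probe set 238900_at, shared with HLA-DRB5, HLA-DRB4 and HLA-DRB3, read 7.3, 1.78 and 2.88 in monolayers and 9.19, 14.5 and 19.8 in spheroids (log2 fold change 1.90, SE 0.64, adjusted p = 0.108 by limma). Its groups did not overlap, with 2 of the 3 monolayers under 3.11, and without monolayer replicate 1 it passed with a log2 fold change of 2.46 (adjusted p = 0.0338). Probe set 221491_x_at, which carries 6 symbols including the pseudogene HLA-DRB6, read 6.30, 6.38 and 7.93 in monolayers and 14.5, 2.66 and 8.99 in spheroids. Here spheroids 1 and 3 lay above all monolayers and spheroid 2 below them (log2 fold change -0.10, 95% interval -1.69 to 1.48, adjusted p = 0.956 by limma).

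**Figure D2:**
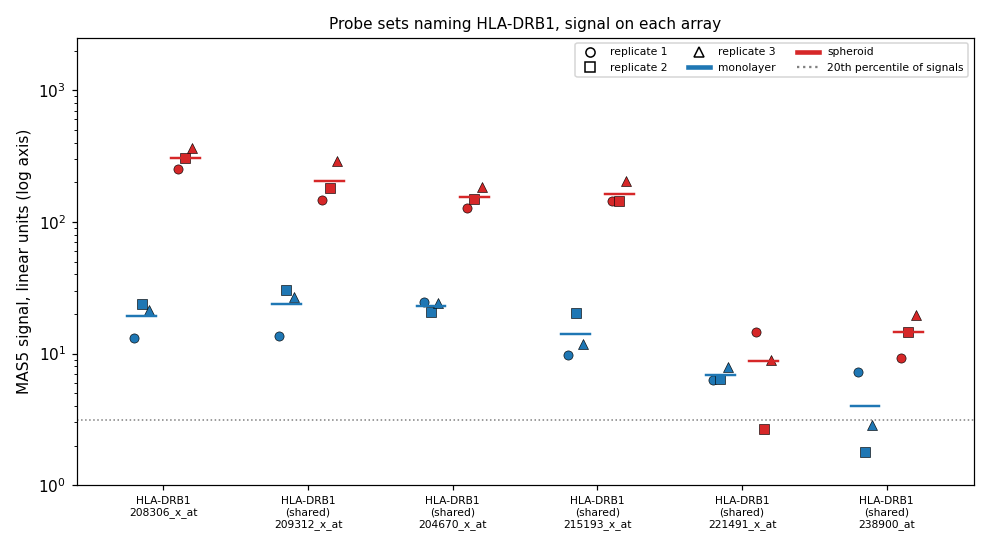
MAS5 signal in linear units on a log axis for the 6 probe sets that name HLA-DRB1, with blue for monolayers, red for spheroids, 1 symbol per replicate, bars at the group means and a dotted line at 3.11, the 20th percentile of all signals; "shared" marks several gene symbols. The spheroids of 208306_x_at sit between 250.2 and 367 above monolayers between 13.0 and 23.7, while the groups of 221491_x_at overlap.

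Which DRB gene gave these signals cannot be told from the probe sets. HLA-DRB3, HLA-DRB4 and HLA-DRB5 are further beta chain genes, close in sequence, whose presence differs between haplotypes. The 4 probe sets called all carry the suffix _x_at, which Affymetrix gives to probe sets with probes that can also bind other transcripts, as 10 of the 32 do. The sequence accession behind 208306_x_at now belongs to HLA-DRB4 in RefSeq and that of 204670_x_at to HLA-DRB5, against the symbols of the annotation. HLA-DRB4 also has 3 probe sets of its own, and their log2 fold changes of -0.24, 0.73 and -0.98 (209728_at, 215666_at and 215669_at) did not pass (adjusted p = 0.879, 0.582 and 0.606 by limma). All were dim, with monolayer and spheroid means of 1.78 and 1.72 (209728_at), 4.15 and 7.44 (215666_at) and 3.78 and 3.08 (215669_at). Signals this near the bottom of the scale cannot show whether HLA-DRB4 rose. HLA-DRB6, a pseudogene between HLA-DRB1 and HLA-DRB5, rose at 217362_x_at from 2.29, 6.34 and 10.9 in monolayers to 70.2, 54.7 and 62.0 in spheroids (log2 fold change 3.37, SE 0.54, adjusted p = 0.00581 by limma). That call was lost without the trend and in the unmoderated test (adjusted p up to 0.104), and 217362_x_at too carries the suffix _x_at. Another probe set that names HLA-DRB6, 217323_at, had group means of 1.48 and 1.94, under 3.11. It did not pass (log2 fold change -0.08, adjusted p = 0.977 by limma). Of the 9 class II genes outside the 10 followed, 4 were higher (HLA-DRB3, HLA-DRB4, HLA-DRB5 and HLA-DRB6) and 0 lower. Over all genes, 3.88% were higher and 9.22% lower. However, HLA-DRB3, HLA-DRB4 and HLA-DRB5 were read there through the shared probe sets 215193_x_at and 209312_x_at already given.

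HLA-DRA, the alpha chain with which every HLA-DR beta chain pairs, stayed at the bottom of the scale in both groups. Probe set 210982_s_at read 1.22, 1.85 and 1.36 in monolayers and 1.46, 2.57 and 2.11 in spheroids, and 208894_at read 1.68, 0.786 and 0.572 in monolayers and 3.48, 0.883 and 1.40 in spheroids. Of these 12 signals, 11 were under 3.11. The log2 fold changes were 0.31 (95% interval -1.05 to 1.66, adjusted p = 0.829) and 0.69 (95% interval -1.06 to 2.44, adjusted p = 0.680), and intervals of this width include a change of over 2-fold either way.

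HLA-DP presents peptides like HLA-DR, and neither chain passed the test. HLA-DPA1, its alpha chain, read 8.16, 7.36 and 9.30 in monolayers and 6.91, 14.7 and 10.1 in spheroids at 211990_at (log2 fold change 0.15, 95% interval -0.86 to 1.15), and its 2 other probe sets had both group means under 3.11. HLA-DPB1, the beta chain, read 10.1, 8.75 and 0.896 in monolayers and 8.64, 8.47 and 5.48 in spheroids at 244485_at (log2 fold change 0.64, 95% interval -1.40 to 2.68). Its second probe set, 201137_s_at, gave the opposite sign, with 13.1, 9.14 and 2.78 in monolayers and 3.09, 4.06 and 3.93 in spheroids (log2 fold change -1.07, 95% interval -2.59 to 0.46). In both HLA-DPB1 probe sets monolayer 3 was far below the other monolayers, and all groups overlapped.

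HLA-DQA1, the alpha chain of HLA-DQ, had 4 probe sets, of which 2 had spheroids all above monolayers and none passed. Probe set 213831_at read 2.78, 0.921 and 1.06 in monolayers and 4.98, 10.9 and 8.55 in spheroids (log2 fold change 2.33, SE 0.67, adjusted p = 0.0624 by limma). It passed without monolayer replicate 1, whose signal was the highest of its group (adjusted p = 0.0317). Probe set 212671_s_at, shared with HLA-DQA2, read 0.544, 1.37 and 0.395 in monolayers and 5.29, 1.83 and 2.39 in spheroids (log2 fold change 1.96, adjusted p = 0.159). All monolayer signals of both were under 3.11, so that neither fold change has an exact size. The 2 others, 236203_at and 203290_at, overlapped between groups, with log2 fold changes of 0.30 (95% interval -1.25 to 1.84) and 0.71 (95% interval -1.32 to 2.75).

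HLA-DQB1, the beta chain of HLA-DQ, had 7 probe sets of its own and none passed. At 211654_x_at the monolayers read 18.1, 23.2 and 19.3 and the spheroids 25.1, 19.0 and 31.3 (log2 fold change 0.15, 95% interval -0.61 to 0.91), and at 211656_x_at they read 22.3, 18.9 and 13.6 against 19.6, 17.9 and 23.8 (log2 fold change 0.03, 95% interval -0.75 to 0.82). Both intervals lie below 2.57, the smallest log2 fold change among the probe sets called. The single member probe set with spheroids all below monolayers was 209480_at, at 0.942, 0.939 and 1.69 in monolayers and 0.680, 0.433 and 0.366 in spheroids (log2 fold change -1.41, adjusted p = 0.213), all of them under 3.11. The other 4 had log2 fold changes from -0.96 to 0.72, and the interval of 212998_x_at, -1.25 to 2.69, was too wide to leave out such a rise. The symbol HLA-DQB1 also stands in 3 of the probe sets that name HLA-DRB1, 2 of which rose.

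**Figure D3:**
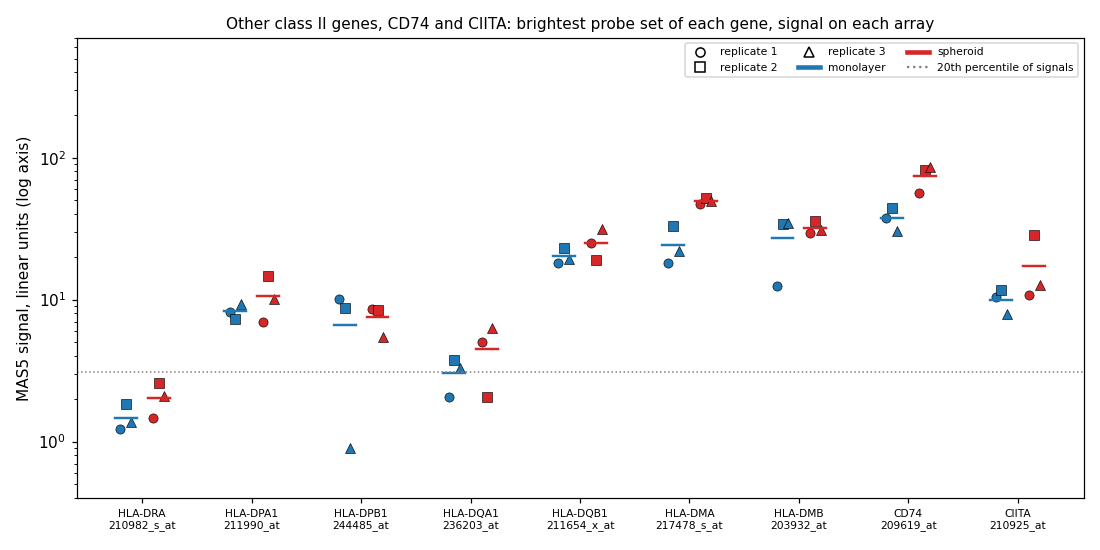
MAS5 signal in linear units on a log axis for the other 9 genes, each at its own probe set of highest mean level, with blue for monolayers, red for spheroids, 1 symbol per replicate, bars at the group means and a dotted line at 3.11. Both groups of HLA-DRA lie under the dotted line, and at HLA-DMA and CD74 the spheroids lie above all monolayers.

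HLA-DMA, the alpha chain of the peptide exchanger, read 18.2, 32.9 and 22.0 in monolayers and 47.2, 51.9 and 49.6 in spheroids at its 1 probe set, 217478_s_at. The groups did not overlap, and the spheroids varied less than the monolayers. The means of 24.4 ± 7.64 (SD, n = 3) and 49.6 ± 2.34 (SD, n = 3) gave a log2 fold change of 0.92 (SE 0.28, adjusted p = 0.0764 by limma), which did not pass. HLA-DMB, its partner, read 12.6, 34.0 and 34.6 in monolayers and 29.3, 35.5 and 30.9 in spheroids at 203932_at. Leaving out monolayer 1, the low one, turned its log2 fold change from 0.23 (95% interval -0.68 to 1.14) to -0.25.

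CD74, the invariant chain, read 37.5, 44.3 and 30.3 in monolayers and 56.0, 82.4 and 86.1 in spheroids at 209619_at. Every spheroid was above every monolayer (37.4 ± 7.0 against 74.8 ± 16.4, SD, n = 3; log2 fold change 0.85, SE 0.25), but the adjusted p was 0.0669 by limma. Without the centring, which takes 0.15 from each log2 fold change, CD74 and HLA-DMA passed (log2 fold changes 0.99 and 1.07, adjusted p = 0.0403 and 0.0455), and both also passed when only probe sets above the median level were tested (adjusted p = 0.0341 and 0.0345). CD74 also passed with quantile normalization, where HLA-DMA did not. With both arrays of replicate 1 left out, CD74 passed (log2 fold change 1.03, adjusted p = 0.0277) and HLA-DMA did not (adjusted p = 0.151). The other 2 probe sets of CD74, 1567628_at and 1567627_at, overlapped between groups, with log2 fold changes of -0.14 and -0.58.

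CIITA, the coactivator, did not differ past the test at any of its 3 probe sets, and these disagreed in sign. Probe set 210925_at read 10.4, 11.6 and 7.95 in monolayers and 10.7, 28.5 and 12.6 in spheroids. Spheroid 2 was far above the other spheroids, of which spheroid 1 lay within the range of the monolayers and spheroid 3 just above it (log2 fold change 0.53, 95% interval -0.48 to 1.53, adjusted p = 0.560). Probe set 211884_s_at read 13.2, 11.0 and 1.76 in monolayers and 1.59, 2.42 and 2.92 in spheroids (log2 fold change -1.65, 95% interval -3.53 to 0.23, adjusted p = 0.290), with monolayer 3 at the level of the spheroids. At 205101_at the monolayers read 9.08, 0.630 and 1.36 and the spheroids 1.99, 1.76 and 1.51 (log2 fold change -0.33, 95% interval -2.49 to 1.83). Of the intervals, 2 include a rise of over 2-fold. The monolayer means of 9.98, 8.66 and 3.69 all lay under the median signal of the arrays. The spheroid means of 211884_s_at and 205101_at, 2.31 and 1.75, were under 3.11. Signals this dim cannot bound a change in CIITA RNA.

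**Figure D4:**
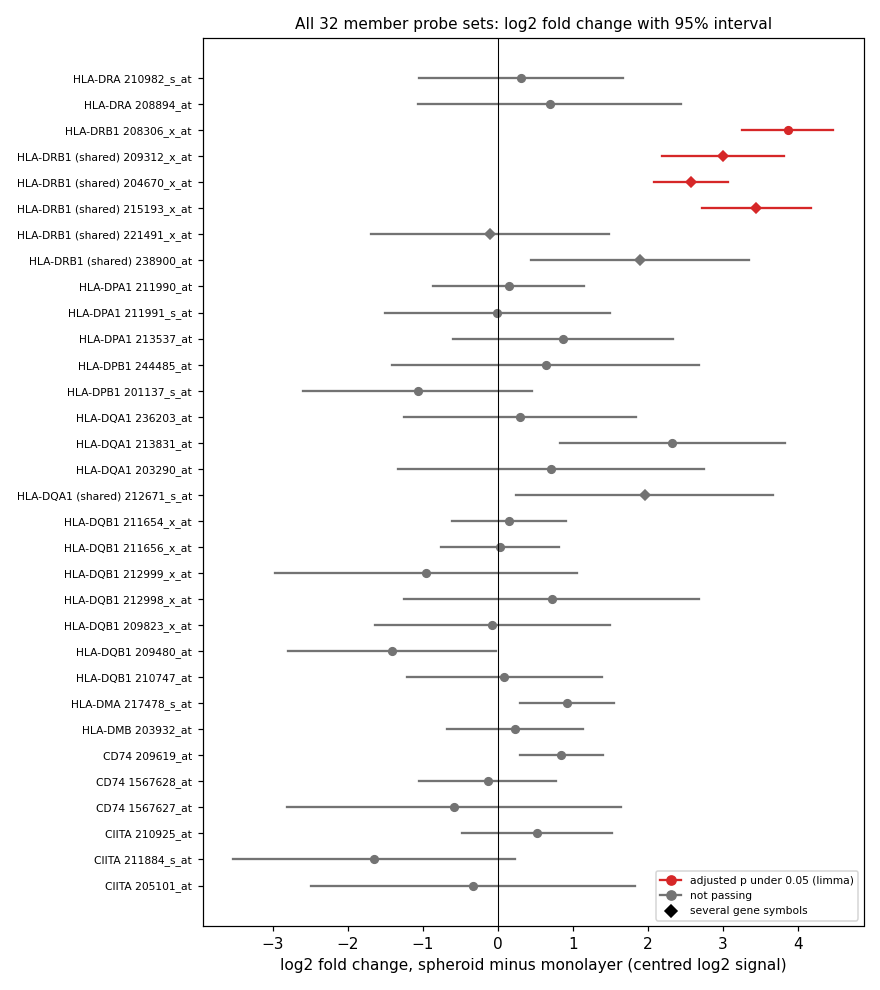
Log2 fold change, spheroid minus monolayer on the centred log2 scale, with its 95% interval from limma for all 32 probe sets, in red where the adjusted p was under 0.05, with diamonds for probe sets of several gene symbols. The 4 red intervals all belong to probe sets that name HLA-DRB1 and lie above 2, and the intervals of HLA-DRA, HLA-DPA1, HLA-DPB1, HLA-DMB and CIITA include 0.

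The probe sets whose 6 centred values followed 208306_x_at most closely were of TNFAIP6 (Pearson r 0.999), PILRA (0.998), SURF1 (0.998), LINC01094 (0.998) and SLC25A37 (0.997). These are descriptions over 6 arrays in which the group difference sets most of the spread, so that r says little about replicates. TNFAIP6, a secreted hyaluronan-binding protein, read from 5.77 to 14.7 in monolayers and from 445 to 1072 in spheroids. PILRA, an inhibitory receptor of myeloid cells, read from 21.3 to 30.5 and from 199.6 to 285.

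Of 13 genes for proteins that assemble on class II promoters, their coactivators and PRDM1, a repressor of the CIITA gene, 0 were higher, 2 lower and 11 not called, and their median log2 fold change was -0.31, beside 3.88% higher, 9.22% lower and a median of -0.06 over all 19775 genes, each read by its own probe set of highest mean level. NFYC, a subunit of NF-Y, which binds the Y box, fell from 330 ± 49.4 to 216 ± 9.03 (SD, n = 3; log2 fold change -0.75, SE 0.16, adjusted p = 0.0205 by limma). CARM1, an arginine methyltransferase and coactivator, fell from 209.7 ± 25.0 to 149 ± 9.34 (SD, n = 3; log2 fold change -0.63, SE 0.17, adjusted p = 0.0498 by limma). RFX5, RFXANK and RFXAP, the subunits of the X box factor RFX, had log2 fold changes of 0.19, -0.31 and -0.44 and did not pass. NFYC and CARM1 also lost the call when 1 array was left out, NFYC in 4 and CARM1 in 5 of 6 cases. The coactivator SMARCA4 did not pass at its probe set of highest mean level, 208794_s_at (adjusted p = 0.106 by limma). Other probe sets of it, named after their values were seen, were lower. These were 208793_x_at (log2 fold change -0.84, adjusted p = 0.0101), 214728_x_at and 215714_s_at (adjusted p = 0.0439 and 0.0463 by limma).

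Of the interferon gamma pathway, which induces CIITA in many cells, 9 genes were measured. The receptor chain IFNGR1 was higher and the other 8 did not pass, beside 3.88% higher and 9.22% lower over all genes. The median log2 fold change of the 9 was 0.50. IFNGR1 read 1845, 988 and 980.4 in monolayers and 3357, 3196 and 3338 in spheroids (log2 fold change 1.30, SE 0.24, adjusted p = 0.0110 by limma). Without monolayer 2 or spheroid 3 it did not pass. The cytokine itself, IFNG, read 3.06, 2.58 and 2.93 in monolayers and 2.67, 11.0 and 5.44 in spheroids (adjusted p = 0.541). IRF1, a transcription factor induced by interferon, had a log2 fold change of 0.82 (adjusted p = 0.115) at 202531_at, while its second probe set, 238725_at, named after its values were seen, passed at 1.78 (SE 0.32, adjusted p = 0.0100). With any probe set of a gene counted, 3 genes of this pathway were higher, the third being JAK1.

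Endosomal processing and traffic held 12 measured genes, of which 3 were higher, 1 lower and 8 not called (median log2 fold change 0.21). Over all genes, 3.88% were higher and 9.22% lower, with a median of -0.06. CTSS, the cathepsin that trims CD74 in antigen presenting cells, read 9.45, 14.4 and 14.5 in monolayers and 27.7, 39.9 and 36.3 in spheroids (log2 fold change 1.30, SE 0.32, adjusted p = 0.0364 by limma), but lost the call whichever array was left out. The tetraspanin CD82 rose from 268 ± 66.3 to 676 ± 60.8 (SD, n = 3; log2 fold change 1.22, SE 0.20, adjusted p = 0.00608 by limma). CTSB did not pass at its probe set of highest mean level, 200839_s_at, nor at 200838_at (adjusted p = 0.121 and 0.0970 by limma). Its probe sets 213274_s_at, 213275_x_at and 227961_at, named after their values were seen, were higher (adjusted p = 0.0325, 0.0375 and 0.0437 by limma). MARCHF1 and MARCHF8, ubiquitin ligases that can send class II molecules to lysosomes, went opposite ways. MARCHF1 fell at 219574_at from 313, 323 and 231 in monolayers to 130.3, 109.5 and 108 in spheroids (log2 fold change -1.45, SE 0.19, adjusted p = 0.00234 by limma) and passed whichever array was left out. Its probe sets 229383_at and 235385_at overlapped between groups and did not pass (log2 fold changes -1.07 and -1.02, adjusted p = 0.0644 and 0.0669 by limma). MARCHF8 rose from 112 ± 17.8 to 241 ± 21.5 (SD, n = 3; log2 fold change 0.97, SE 0.18, adjusted p = 0.0123 by limma) and did not pass without spheroid 3.

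Beside 3.88% of all genes higher and 9.22% lower, 1 of 6 costimulation and adhesion genes was higher and 0 lower (median log2 fold change 0.23). This was ICAM1, the ligand of LFA-1, at 1605 ± 263 in monolayers and 2822 ± 201 in spheroids (SD, n = 3; log2 fold change 0.68, SE 0.15, adjusted p = 0.0245 by limma). CD80 and CD86, the ligands of CD28, read between 6.25 and 20.1 at their probe sets of highest mean level (1554519_at and 205685_at), and did not pass. In the class I system, which presents peptides from the cytosol, 2 of 10 measured genes were higher and 1 lower (median log2 fold change 0.11). The shares over all genes are the same 3.88% and 9.22%. HLA-E, which presents leader peptides, had a log2 fold change of 0.70 (SE 0.16, adjusted p = 0.0283 by limma) and TAPBP, the tapasin of peptide loading, 0.75 (SE 0.18, adjusted p = 0.0314 by limma). TAP2, a subunit of the peptide transporter, was lower at -0.86 (SE 0.23, adjusted p = 0.0494 by limma). B2M, the common light chain, was at 0.06 and NLRC5, the coactivator of class I promoters, at 0.09, and neither passed. With 1 array left out, ICAM1 and HLA-E kept the call in only 2 of 6 fits each, and TAPBP and TAP2 in 1 of 6 each. Another probe set of TAP2, 204769_s_at, had the opposite sign and did not pass (log2 fold change 0.36, adjusted p = 0.730 by limma).

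**Figure D5:**
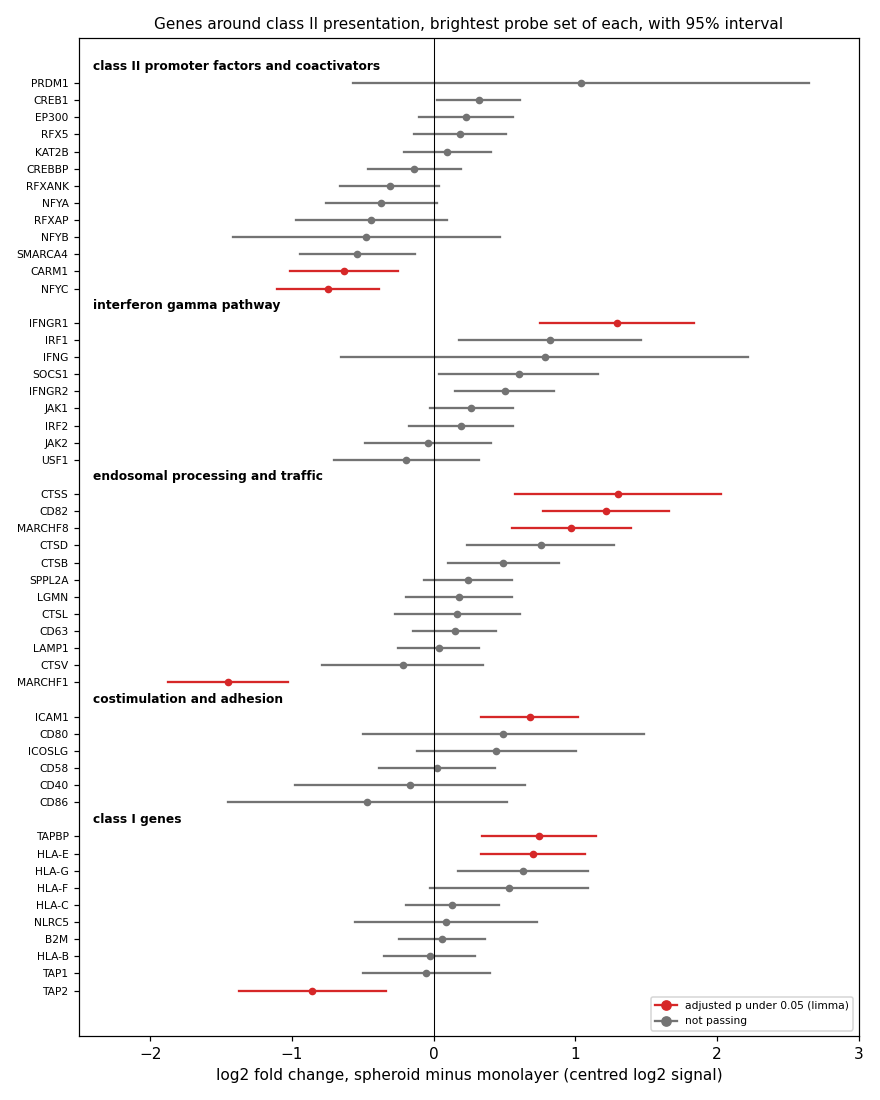
Log2 fold change, spheroid minus monolayer on the centred log2 scale, with its 95% interval from limma for the genes of 5 lists around class II presentation, each at its probe set of highest mean level, in red where the adjusted p was under 0.05. In the promoter factor list the red points (CARM1 and NFYC) lie below 0, and in the endosomal list CTSS, CD82 and MARCHF8 lie above 0 and MARCHF1 below.

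Markers of professional antigen presenting cells were read beside these results, since such cells carry class II RNA. Of 12 measured markers, 1 was higher and 0 lower, beside 3.88% higher and 9.22% lower over all genes. Their median log2 fold change was 0.12. Their signals were summed over the 12 probe sets, in which bright probe sets weigh most. The sums ran from 175 to 204 in monolayers and from 267 to 290.0 in spheroids. ITGAX, the integrin alpha chain CD11c, read 15.4, 16.1 and 16.2 in monolayers and 38.2, 57.5 and 53.3 in spheroids (log2 fold change 1.48, SE 0.26, adjusted p = 0.00929 by limma) and did not pass without spheroid 3. PTPRC, the common leukocyte antigen CD45, was at 3.92 ± 2.60 and 13.1 ± 0.877 at 212587_s_at (SD, n = 3, adjusted p = 0.106 by limma), while its 4 other probe sets had log2 fold changes from -2.62 to -0.35 and did not pass. Group means of those 4 ran from 0.872 to 5.22, too near the bottom of the scale to read a direction. CD14 was at 21.0 ± 7.51 and 44.0 ± 5.89 (SD, n = 3, adjusted p = 0.117 by limma). SPI1, the myeloid transcription factor, and CD163 had both group means under 3.11. ITGAM, a myeloid integrin chain, was at 81.5 ± 20.3 and 86.5 ± 23.6 (SD, n = 3). The part of these markers in the DRB signals was not tested.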

How the data were processed

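RNA of 3 monolayer and 3 spheroid cultures of NCI-H226 was measured on 6 arrays. The authors deposited 1 intensity per probe set and array, on a linear scale, from the MAS5 algorithm, with a trimmed mean of 150.0 on every array. Precision is limited by the number of arrays.

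The array holds 54675 probe sets, and its 62 controls were not tested. Signals were taken to log2 with no pseudocount, floor or filter, each array was centred on its median over all probe sets, and limma 3.58.1 in R 4.3.3 compared the groups at 54613 probe sets (empirical Bayes with trend, Benjamini-Hochberg over all, threshold 0.05). Groups come from the labels. Probe sets were named from the platform annotation (1 symbol at 41091, several at 1801, not named here at 11721), and 6 of the 32 member accessions matched RefSeq. The fit was tested on simulated data.

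The members and gene lists were chosen with earlier results of these data known. All member probe sets are accounted for. Values are given for those called, those with a group mean above the median signal and the probe set of highest mean level of each gene; for each other list, for at most 4 called genes; for the 5 probe sets most correlated with the member of smallest adjusted p; and for the markers of highest mean signal of each list. Other genes were named for their role. Alternatives were no centring, the 20th percentile of signals as a floor, quantile normalization, a test of the brighter part of the probe sets (above the median level), no trend, the methods' t-test with and without adjustment, a replicate block, any probe set of a gene, and leaving out each array. Leaving out both arrays of replicate 1 was added after the data had been seen.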

Additional observations from a re-analysis of the deposited data

How the results depend on the processing

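Against 4 member probe sets called higher and 0 lower, no centring gave 6 higher, quantile normalization 5, the floor 4, probe sets above the median level 6, and the fit without trend and the adjusted t-test of the methods 3 each, with 0 lower in all of these. The unadjusted t-test gave 8 higher and 1 lower. Without monolayer 1, 6 were higher, and without any other array 4. With both arrays of replicate 1 left out, chosen after seeing the data, 7 were higher and 0 lower, and the log2 fold changes of 236203_at, 203932_at, 1567627_at and 205101_at turned to -0.15, -0.22, 0.98 and 0.64. The deviations of same-numbered arrays from their group means had correlations of 0.091, -0.013 and 0.022 for numbers 1 to 3. Only replicate 1 correlated best with its own number. These values run over all tested probe sets, dim ones included, and cannot show whether the numbers pair the arrays. With the replicate block, 1947 probe sets were higher and 4186 lower, and the members called were the same 4 of 4. Of the 32 member probe sets, 15 changed sign under some alternative, 0 of them called.

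Without centring 2561 probe sets were higher and 2863 lower, and with quantile normalization 2463 and 2967. Both gave 3 higher in the interferon list, 1 higher and 1 lower among promoter factors and 0 lower in class I, and the endosomal list had 6 and 5 higher. With the floor, promoter factors had 1 lower and class I 0 lower, and 4 member probe sets, at the floor on every array, could not be fitted. Above the median level, or with any probe set of a gene, the interferon list had 2 and 3 higher. Without the trend 176 were higher and 281 lower, and in the adjusted t-test 267 and 974. In both, the other class II genes had 1 higher, and the promoter factor, interferon, endosomal, costimulation and class I lists had 0 in either direction. The unadjusted t-test gave 3593 higher and 7138 lower, 1 higher among promoter factors and 3 in the interferon list. The causes were not tested.

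Leaving out 1 array gave 632 to 2263 higher and 1612 to 4314 lower in all, 0 to 2 lower promoter factors, 0 to 1 higher in the interferon list, 1 to 3 in the endosomal list, 0 to 1 in costimulation, and 0 to 4 higher and 0 to 1 lower in class I. The count of all higher was lowest without spheroid 3, at 632, followed by 813 without monolayer 3, 826 without monolayer 2 and 912 without spheroid 1, and that of all lower was lowest without monolayer 2, at 1612.

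Without centring the log2 fold changes of 221491_x_at, 211991_s_at, 209823_x_at and 1567628_at turned to 0.041, 0.14, 0.070 and 0.0088, and with the floor those of 221491_x_at, 203290_at and 1567627_at to 0.044, -2e-04 and 0.072. Leaving out 1 array, ranges that crossed 0 were -0.66 to 0.67 (221491_x_at), -0.050 to 0.39 (211990_at), -0.32 to 0.49 (211991_s_at), -0.50 to 1.25 (244485_at), -0.077 to 0.86 (236203_at), -0.071 to 0.41 (211654_x_at), -0.17 to 0.20 (211656_x_at), -0.20 to 1.49 (212998_x_at), -0.57 to 0.33 (209823_x_at), -0.15 to 0.29 (210747_at), -0.25 to 0.47 (203932_at), -0.28 to 0.092 (1567628_at), -1.38 to 0.53 (1567627_at) and -1.16 to 0.77 (205101_at).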
